A study of Mus musculus with 20 samples.

Results

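Hoxa2, Hoxa3, Hoxa4, Hoxa5, Hoxa6 and Hoxa7 are the anterior and central genes of the HoxA cluster, followed here in mouse stomach and intestinal mesenchyme with and without Eed. They were chosen by symbol, as neighbours in the cluster, and make up 6 of the 43280 gene symbols in the count files. The study asked how Polycomb repression acts in the mesenchyme of the developing gut and of the adult intestine, using RNA-seq of sorted GFP+ cells and ATAC-seq, which marks accessible chromatin. The 8 embryonic RNA libraries came from E13.5, 2 each from the stomach and the intestine of control embryos (Bapx1-cre;Rosa26mTmG) and of knockout (KO) embryos (Eed fl/fl;Bapx1-cre;Rosa26mTmG). The 4 adult RNA libraries came from the intestine at about 10 weeks, 2 from controls (Pdgfrβ Cre-ERT2;Rosa26mTmG) and 2 from animals that also carried Eed fl/fl. Adult animals received tamoxifen for 5 days and were dissected 2 days later. ATAC-seq covered the 4 embryonic conditions, with the reads of 2 libraries pooled into 1 list of accessible regions for each condition.

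The labels give the strain of the embryos as C57BL/6. The study lists the Bapx1-cre line as C57BL/6 too, and the lines with floxed Eed, Rosa26mTmG and Pdgfrβ Cre-ERT2 as mixed. Rosa26mTmG turns on membrane GFP in cells that have expressed Cre, so the sort selects cells with a history of Bapx1 or Pdgfrβ driven recombination. The purity of the sorted cells was not tested here. The controls carry Cre and the reporter but no floxed Eed. Gene counts summed to between 30236159 and 39606157 per embryonic library, and to between 11404712 and 15903642 per adult library. A count of 0 therefore allows up to 0.0992 CPM (counts scaled to library size) in the shallowest embryonic library and up to 0.263 CPM in the adult library with the highest limit. Such limits and counting intervals cover counting error only.

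Hox genes encode homeodomain transcription factors that give cells positional identity along the body axis, and their order along the chromosome follows the order in which they are expressed along that axis. Polycomb repressive complex PRC2 methylates histone H3 and holds Hox genes silent where they are not in use, and Eed is a core subunit that the complex needs for this activity. In the gut mesenchyme, nested Hox domains mark regions, and Hoxa5 is known for roles in lung and stomach mesenchyme.

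All members lie on the minus strand of chromosome 6 (GRCm38). In the gene models used for counting, Hoxa2 spans 52162511 to 52164831, Hoxa4 spans 52189671 to 52191753 and Hoxa5 spans 52201754 to 52204587. Hoxa6 follows from 52206288 to 52208722 and Hoxa7 from 52214491 to 52221854. The model of Hoxa3 runs from 52169062 to 52213336 and so encloses Hoxa4, Hoxa5 and Hoxa6, while its exons make up 6014 bases. Exons of other genes cover 27.1% of the exon bases of Hoxa3, 16% of Hoxa4, 15.9% of Hoxa2 and 15.6% of Hoxa7. No such overlap exists for Hoxa5 and Hoxa6. Most of these overlaps are with antisense genes. Adult counts were made without regard to strand, and the strand setting of the embryonic counts is not given, so reads in the shared stretches cannot be assigned with certainty.

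Promoter sequences of 5 of the 6 members (Hoxa4 is not listed) came from RefSeq on GRCm38.p6, each from 250 bases before to 50 bases after a gene start. The 3 printed here are those of Hoxa2, Hoxa5 and Hoxa6. Relative to the typical gene, transcript levels of Hoxa2 and Hoxa5 were lower in KO than in control stomach. That direction turns under the spike-in scaling described below. The windows of both genes lay wholly inside an accessible region in every condition. The window of Hoxa6 lay in none, as did that of Hoxa7. Capitals mark matches, on either strand, to TGATNNAT (a motif bound by Pbx and Hox proteins together), TATAAA and CCAAT. Of 32851 promoters, 8.85% hold the Pbx and Hox motif, 13.6% hold TATAAA and 37.4% hold CCAAT. The windows are chr6:52164782-52165081, chr6:52204538-52204837 and chr6:52208623-52208922, all on the minus strand and written 5′ to 3′.
Hoxa2: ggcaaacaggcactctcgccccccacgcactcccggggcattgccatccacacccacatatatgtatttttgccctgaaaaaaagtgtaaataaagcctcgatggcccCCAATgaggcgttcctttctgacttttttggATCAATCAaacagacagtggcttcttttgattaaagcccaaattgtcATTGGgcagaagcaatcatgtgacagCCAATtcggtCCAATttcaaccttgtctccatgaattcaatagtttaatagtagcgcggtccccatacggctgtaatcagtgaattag
Hoxa5: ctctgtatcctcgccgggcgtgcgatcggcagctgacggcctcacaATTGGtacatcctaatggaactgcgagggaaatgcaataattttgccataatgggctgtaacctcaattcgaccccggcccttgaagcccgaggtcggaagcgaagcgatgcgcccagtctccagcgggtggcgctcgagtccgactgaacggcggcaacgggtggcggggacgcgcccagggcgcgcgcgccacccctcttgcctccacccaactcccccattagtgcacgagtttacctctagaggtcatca
Hoxa6: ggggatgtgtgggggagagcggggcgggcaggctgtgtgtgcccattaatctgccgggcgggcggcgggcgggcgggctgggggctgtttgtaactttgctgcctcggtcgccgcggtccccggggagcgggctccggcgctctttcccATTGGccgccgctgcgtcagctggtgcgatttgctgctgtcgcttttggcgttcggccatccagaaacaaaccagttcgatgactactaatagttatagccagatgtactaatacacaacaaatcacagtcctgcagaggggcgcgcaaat

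The Hoxa2 window holds 1 match to the Pbx and Hox motif, 111 bases before the start on the reverse strand, and 4 CCAAT matches. Hoxa5 and Hoxa6 hold 1 CCAAT match each, and none of the motifs occurs in the windows of Hoxa3 and Hoxa7. A match is a description of the letters and not evidence of binding. CG pairs number 29 in Hoxa5, 26 in Hoxa6, 20 in Hoxa3 and 9 in both Hoxa2 and Hoxa7, against a median of 7 over all promoters. The Hoxa7 window, from 52218524 to 52218823, belongs to another start than the 5′ end of its counted model at 52221854, so its letters do not describe the promoter region given for that gene.

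Accessible regions called by the authors overlapped the promoter, taken as 1000 bp on either side of the 5′ end of the counted gene model, at 5 of the 6 members in each of the 4 lists. Hoxa6 had none within this distance. The share of all 16217 genes with such a region was 88.3% in control stomach, 88.9% in KO stomach, 87.8% in control intestine and 88.9% in KO intestine, so the members' count lies near the background. Fold enrichment over the local background at Hoxa7, a gene of trunk axial patterning, was 4.88 in control stomach, 2.92 in KO stomach, 4.34 in control intestine and 3.34 in KO intestine. The -log10 q of these Hoxa7 regions was 30.8, 16.2, 32.1 and 21 in the same order. At Hoxa5 the enrichment was 3.01, 2.25, 2.95 and 2.46. Both genes had lower values in the KO lists than in the control lists, as did Hoxa4. These are values of regions called separately in each list, with unlike widths. The Hoxa7 region spanned 468 bp in control and 936 bp in KO stomach, and 754 and 917 bp in intestine. The Hoxa5 region spanned 2877 and 4025 bp in stomach, and 2893 and 3713 bp in intestine. The Hoxa4 region of control stomach spanned 592 bp and did not cover the start, against 3551 bp in KO stomach.

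Hoxa4, a gene of cervical vertebral patterning, had an enrichment of 3.63 in control stomach, 3.42 in KO stomach, 3.64 in control intestine and 3.21 in KO intestine. At Hoxa3, which acts in thymus and parathyroid development, the values were 3.77, 3.68, 3.47 and 3.62. Hoxa2, a gene of hindbrain and pharyngeal arch patterning, had the lowest values, 2.21, 2.09, 2.31 and 2.21, against list medians of 3.63, 3.65, 3.81 and 3.49. With 1 pooled list per condition there is no replicate spread, and none of these differences was tested. Within 2500 bp of the start all 6 members, Hoxa6 included, had a region in each list, as did between 90.8% and 91.8% of all genes. A region over the start itself was found at 4 members in control stomach, without Hoxa4 and Hoxa6, and at 5 in each of the other lists, without Hoxa6, against 81.2% to 83.3% of all genes. Among regions that reach 5 in -log10 q, the control stomach list held promoter regions at 5 members (84.4% of all genes), the KO stomach list at 3 (86.3%), the control intestine list at 4 (84.7%) and the KO intestine list at 4 (85.4%). Hoxa2 fell below that value in KO stomach (3.73), control intestine (4.81) and KO intestine (4.06), and Hoxa5 in KO stomach (4.87).

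**Figure D1:**
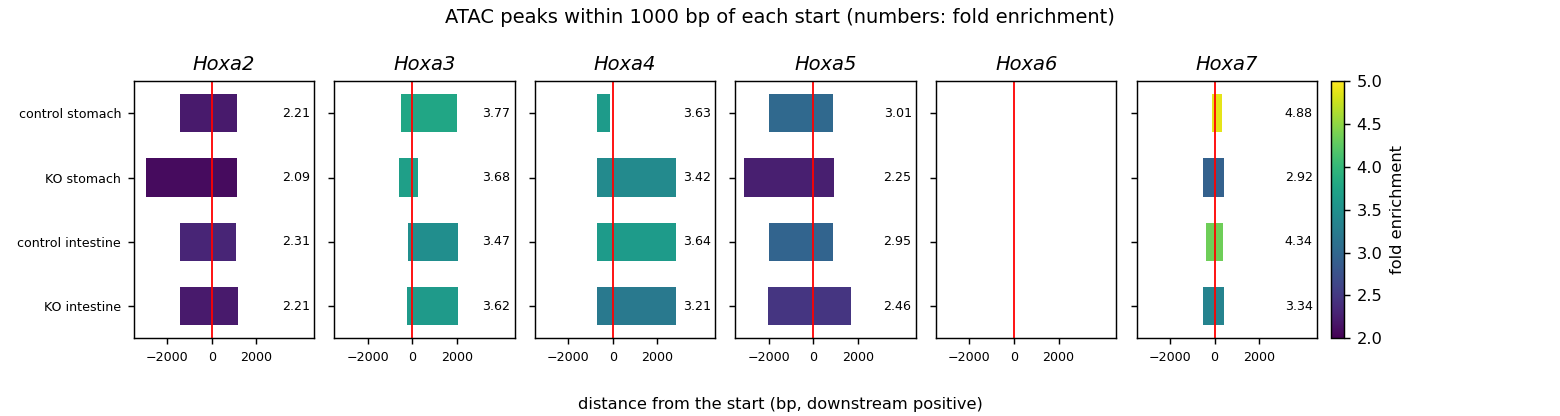
Extent of the accessible region at each member's promoter against distance from the start in bp, with 1 pooled ATAC-seq list per line and colour and number for its fold enrichment. Hoxa7 has the highest control values among the members, 4.88 and 4.34, and Hoxa6 has no region within 1000 bp of its start in any list.

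From 5000 bp outside Hoxa2 to 5000 bp outside Hoxa7, a stretch of 69344 bp, merging the lists gave 15 accessible regions. They covered 31.2% of the stretch in control stomach, 37.9% in KO stomach, 35.1% in control intestine and 39.7% in KO intestine. Over the stretches of all 16217 genes, taken with the same margin, the lists covered 5.04%, 5.42%, 4.75% and 5.36% in the same order, so the KO lists also covered more over all genes. The region from 52200136 to 52201479, 3108 bp from the start of Hoxa5, was called in both KO lists and in neither control list, with enrichments of 2.19 in stomach and 2.03 in intestine. The region from 52179509 to 52181040 was called in both intestinal lists and in neither stomach list, with enrichments of 2.01 in control and 2.18 in KO. A region from 52193797 to 52194640 was called in the control stomach alone, at 2.19. The enrichments of these 3 regions lie below every list median, and absence from a list means only that the call was not made in the pooled reads. The region from 52197118 to 52197988, 5365 bp from the start of Hoxa4, was called in all 4 lists and was higher in KO, at 2.83 in control and 3.75 in KO stomach, and at 3.57 in control and 4.7 in KO intestine. Its KO values were the highest of the stretch in either KO list. From 52224112 to 52227146, the enrichment was 2.02 in control and 2.81 in KO stomach, and 2.35 and 2.42 in intestine. These differences run against those at the promoters of Hoxa4, Hoxa5 and Hoxa7, and none was tested.

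RNA levels are given as CPM after TMM scaling, and as TPM, which divides by transcript length, where genes are compared with each other. Differences are log2 fold changes from edgeR with a standard error (SE), and p-values are adjusted over all genes tested. To be called, a gene had to pass 0.05 in adjusted p and 1 in the size of its log2 fold change. TMM assumes that most genes do not change. Scaling by spike-in RNA instead moved the median log2 fold change of all genes to 2.39 in KO against control stomach, 1.85 in KO against control intestine, 0.30 between the control organs and -0.24 between the KO organs. For the interaction of organ and genotype that median was -0.53, for the adult comparison -0.42 and for the difference between ages -2.27. These shifts depend on single libraries. Of gene and spike-in counts together, spike-ins made up 0.0337% and 0.0134% in KO stomach and 0.0403% and 0.0152% in KO intestine. The shares were 0.11% and 0.0909% in control stomach and 0.072% and 0.0887% in control intestine. Without KO stomach replicate 2 the median in stomach was 1.62, and without KO intestine replicate 2 the median in intestine was 1.06. Leaving out replicate 1 of either KO group instead gave 2.89 and 2.37. The median of the interaction was 0.25 without KO stomach replicate 2 and -1.33 without KO intestine replicate 2, and the adult median was -0.03 without adult control intestine replicate 2. Between ages the median was -1.47 without embryonic KO intestine replicate 2. A lower value in KO therefore means lower than the typical gene of the same library. The study describes the 2 libraries of a group as biological replicates, and the labels do not say which animals each holds. The p-values measure the spread between these samples. Permuting 2 libraries against 2 exactly gives a two-sided p of 0.333 at best, and the adjusted p-values printed come from the edgeR model. Groups of 2 libraries that do not overlap are therefore a description and no test. The share of all genes whose groups separate in this way was not counted for any comparison. In bulk samples, fewer cells of a type and less RNA per cell cannot be told apart.

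Eed was measured as a check of the deletion, over all its exons and not only the floxed ones. Its level was 40 and 41.5 CPM in control stomach, 11.5 and 7.4 in KO stomach, 38.1 and 40.1 in control intestine, and 10.7 and 8.58 in KO intestine. KO libraries lay below control libraries in both organs on the TMM scale. On that scale Eed differed by a log2 fold change of -2.11 (SE 0.21, adjusted p = 0.0017 from edgeR) in stomach and -2.02 (SE 0.21, adjusted p = 0.0046 from edgeR) in intestine, where the stomach value turned with the spike-ins. With spike-in scaling the log2 fold change of Eed was 0.14 in stomach, so its direction turned there, and -0.23 in intestine. Without KO stomach replicate 2 the spike-in value in stomach was -0.22, below control as on the TMM scale, and without control stomach replicate 1 it was 0.00. In intestine it was -0.82 without KO intestine replicate 2 and 0.19 without KO intestine replicate 1.

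In the adult libraries, Eed was at 29.7 and 33.4 CPM in controls and at 25.6 and 25 in those labelled KO. The log2 fold change was -0.32 (adjusted p = 0.32 from edgeR), so a reduction was not called in these counts over all exons. The study also assayed the deletion in adult cells separately, a measure not used here. The groups are named below as the adult control libraries and the libraries labelled adult KO.

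The comparison of the control organs asks how the members differ along the gut before any deletion. Of the 6 members, 2 were called, both lower in intestine, where 5.07% of the 16218 genes tested were called in either direction, 1.68% higher and 3.39% lower in intestine. Hoxa7 was at 43.1 and 60.2 CPM in stomach and 17.6 and 16.3 CPM in intestine. Hoxa6, its neighbour with a role in trunk patterning, was at 3.53 and 4.13 CPM in stomach and 1.43 and 1.24 CPM in intestine. Both stomach libraries lay above both intestinal libraries for either gene. The log2 fold change of intestine against stomach was -1.61 (SE 0.17, adjusted p = 0.0016 from edgeR) for Hoxa7 and -1.51 (SE 0.28, adjusted p = 0.019 from edgeR) for Hoxa6. Relative to the shifted median under spike-in scaling these values were -1.63 and -1.51, and neither gene was called under that scaling (adjusted p = 0.99 from edgeR).

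The call of Hoxa6 ended when any of the 4 control libraries was left out, with an adjusted p from edgeR of 0.12 without control intestine replicate 1, 0.12 without control intestine replicate 2, 0.063 without control stomach replicate 1 and 0.11 without control stomach replicate 2. Hoxa7 was called in each of these 4 fits. Hoxa5 was at 79.9 and 66.8 CPM in stomach and 42.4 and 41.5 in intestine, with a log2 fold change of -0.81 (SE 0.14, adjusted p = 0.014 from edgeR). Hoxa2 and Hoxa3 had log2 fold changes of -0.57 and -0.77, also with an adjusted p under 0.05 and a size below the cutoff. Hoxa4 was at 31 and 31.8 CPM in stomach and 39.3 and 32.6 in intestine. It differed by 0.20 (95% interval from -0.11 to 0.50), the only member with a value above 0, which was 0.07 without control intestine replicate 1 and 0.33 without control intestine replicate 2. The median over the 6 members was -0.79, against 0.00 over all genes tested.

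Per length, Hoxa5 was the most abundant member in control stomach at 119 ± 15.4 TPM (SD, n = 2), followed by Hoxa4 at 59.8 ± 0.823, Hoxa7 at 41.7 ± 9.65, Hoxa2 at 33.3 ± 3.48, Hoxa3 at 14.7 ± 0.366 and Hoxa6 at 13.3 ± 1.43. Hoxa7 and Hoxa2 lie within their spread of each other, as do Hoxa3 and Hoxa6. In control intestine Hoxa4 (67.5 ± 7.43 TPM, SD, n = 2) and Hoxa5 (67 ± 0.514) lay together at the top, followed by Hoxa2 at 22.1 ± 1.37, then Hoxa7, Hoxa3 at 8.49 ± 0.632 and Hoxa6 at 4.58 ± 0.353. Between libraries, the CPM summed over the members was 206 and 210 in control stomach and 129 and 122 in control intestine.

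**Figure D2:**
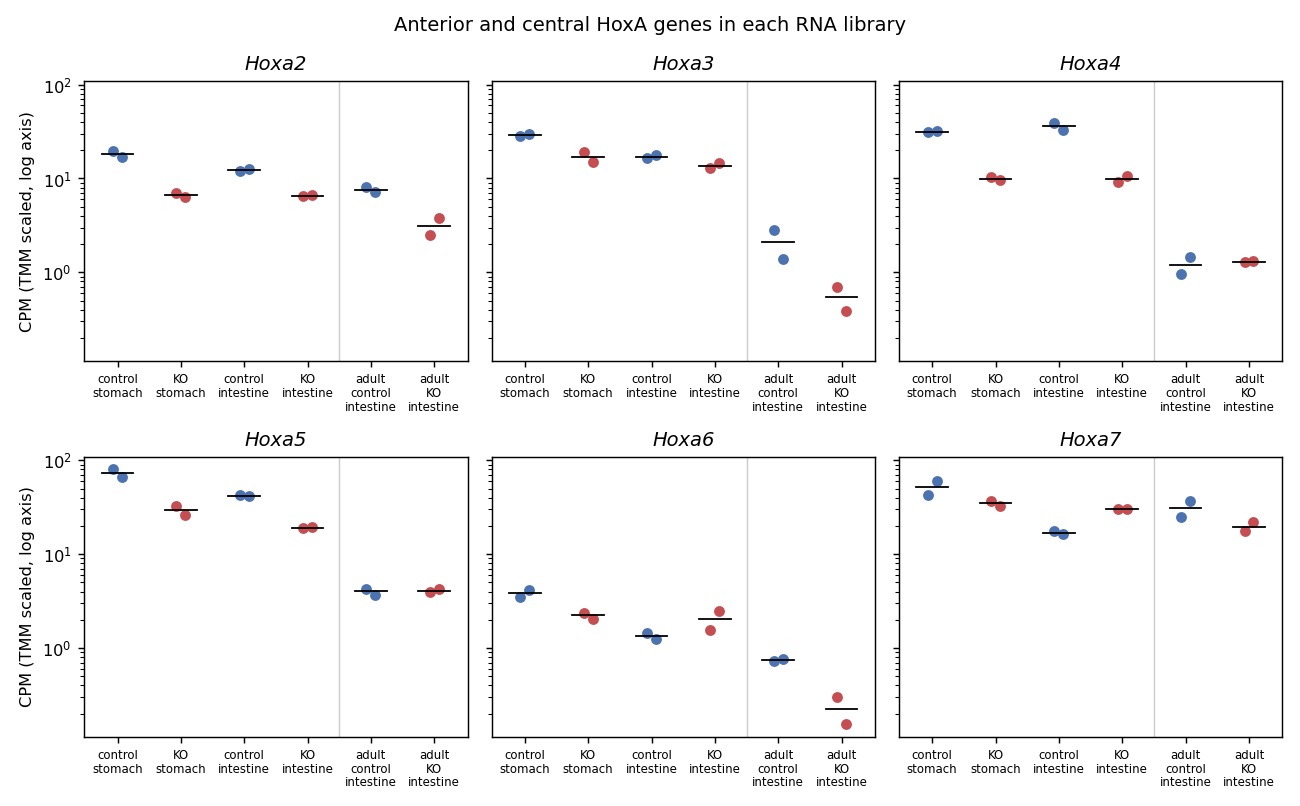
Level of each member in CPM on a log axis, 1 point per library, with bars at the group means of 2 libraries. On this TMM scale the KO points of Hoxa4 and Hoxa5 lie below the control points in both embryonic organs. That direction turns under spike-in scaling of all libraries, though not in intestine without KO intestine replicate 2. For Hoxa4 in intestine it does not turn without control intestine replicate 2 either.

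KO against control stomach asks what loss of Eed does in the anterior organ. Of the 6 members, 3 were called, all lower in KO on the TMM scale and all above 0 under spike-in scaling. Over all genes tested 5.65% were called, 4.84% higher and 0.808% lower in KO. Hoxa4 was at 31 and 31.8 CPM in control and 10.3 and 9.57 CPM in KO libraries. The KO libraries were close together and well below the controls. Its log2 fold change was -1.66 (SE 0.14, adjusted p = 9.3e-04 from edgeR), which turned to 0.71 under spike-in scaling, or -1.68 relative to the shifted median.

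Hoxa2 was at 19.7 and 17.1 CPM in control stomach and 7.03 and 6.31 in KO stomach. Hoxa5 was at 79.9 and 66.8 CPM in control and 32.7 and 26.2 in KO. For both genes the higher KO library was below the lower control library, which is a description only. The log2 fold change of Hoxa2 was -1.46 (SE 0.14, adjusted p = 0.0014 from edgeR), which turned to 0.90 under spike-in scaling and was -1.49 relative to the shifted median. For Hoxa5 it was -1.32 (SE 0.14, adjusted p = 0.0024 from edgeR), which turned to 1.02 and was -1.37 relative to that median. These 3 calls were made in each of the 4 fits that left out a stomach library. Under spike-in scaling without KO stomach replicate 2 the values were 0.01 for Hoxa4, 0.24 for Hoxa2 and 0.46 for Hoxa5.

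The other members were not called on the TMM scale. Hoxa3 was at 28.5 and 29.6 CPM in control and 19 and 14.9 in KO, with a log2 fold change of -0.78 (adjusted p = 0.02 from edgeR). Hoxa6 was at 3.53 and 4.13 CPM in control and 2.39 and 2.06 in KO, with -0.79 (adjusted p = 0.13 from edgeR). Hoxa7 was at 43.1 and 60.2 CPM in control and 37.2 and 32.8 in KO, with -0.56 (95% interval from -0.94 to -0.19, adjusted p = 0.082 from edgeR). That Hoxa7 value was -0.79 without control stomach replicate 1 and -0.30 without control stomach replicate 2. For none of these 3 members did the groups overlap, which is a description only. The share of all genes without such overlap was not counted. Under spike-in scaling, which called 95.2% of all genes tested, 15419 higher and 19 lower, the signs of all 3 members turned. There Hoxa3 at 1.54 (adjusted p = 0.049 from edgeR) and Hoxa7 at 1.78 (adjusted p = 0.026 from edgeR) were called higher in KO, as were most genes. Both of these calls ended under spike-in scaling without control stomach replicate 1, control stomach replicate 2 or KO stomach replicate 2. The median over the members on the TMM scale was -1.05, against 0.00 over all genes tested, and it is a median of values whose signs turn under spike-in scaling.

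The same comparison in intestine called 2 of the 6 members, both lower in KO on the TMM scale and above 0 under spike-in scaling, while 2.61% of all genes tested were called, 2.38% higher and 0.228% lower. Hoxa4 was at 39.3 and 32.6 CPM in control and 9.2 and 10.7 in KO. Hoxa5 was at 42.4 and 41.5 CPM in control and 19 and 19.3 in KO. Replicates lay close together in either group, with a clear gap between the groups. The log2 fold change of Hoxa4 was -1.85 (SE 0.14, adjusted p = 0.0013 from edgeR), which turned to 0.03 under spike-in scaling, or -1.82 relative to the shifted median. For Hoxa5 it was -1.13 (SE 0.14, adjusted p = 0.0092 from edgeR), which turned to 0.72, or -1.13 relative to that median. Both turns ended without KO intestine replicate 2, where Hoxa4 was at -0.94 and Hoxa5 at -0.10 under spike-in scaling. The turn of Hoxa4 also ended without control intestine replicate 2, at a spike-in value of -0.23.

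Hoxa4 kept its call without any 1 intestinal library. The call of Hoxa5 ended without control intestine replicate 1 (adjusted p = 0.074 from edgeR) and without control intestine replicate 2 (adjusted p = 0.065 from edgeR), and also with 1 RUV factor, a covariate estimated from the spike-ins (log2 fold change -0.95, adjusted p = 0.054 from edgeR). Over the libraries left out its log2 fold change stayed between -1.15 and -1.13.

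Hoxa7 stood apart from Hoxa4 and Hoxa5 in intestine. It was at 17.6 and 16.3 CPM in control and 30.1 and 30.5 in KO, so both KO libraries lay above both controls. Its log2 fold change of 0.84 (SE 0.16, 95% interval from 0.46 to 1.22, adjusted p = 0.042 from edgeR) passed the adjusted p and not the size cutoff. Under spike-in scaling, which called 84.4% of all genes tested, 13664 higher and 24 lower, Hoxa7 was at 2.69 and was called. That last call ended without control intestine replicate 1, control intestine replicate 2 or KO intestine replicate 2. Hoxa6 was at 1.43 and 1.24 CPM in control and 1.56 and 2.48 in KO, a difference of 0.59 (95% interval from -0.08 to 1.25) that was 0.88 without KO intestine replicate 1 and 0.21 without KO intestine replicate 2. Its KO values span a wider range than its controls, without overlap. Under spike-in scaling Hoxa6 was at 2.55 and called higher in KO (adjusted p = 0.027 from edgeR). This call did not hold in every fit under that scaling that left out a library.

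Hoxa2 was at 12 and 12.7 CPM in control intestine and 6.51 and 6.64 in KO, with a log2 fold change of -0.91 (SE 0.14, adjusted p = 0.017 from edgeR), under the size cutoff and at 0.95 with spike-in scaling. Hoxa3 was at 16.4 and 17.7 CPM in control and 12.9 and 14.6 in KO, with -0.31 (95% interval from -0.65 to 0.03). Spike-in scaling called 84.4% of all genes tested. Under it Hoxa3 was at 1.58 and called higher in KO, though not in every fit that left out a library. Its groups came close to each other without overlap. The median over the members was -0.61 on the TMM scale, against 0.01 over all genes tested.

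**Figure D3:**
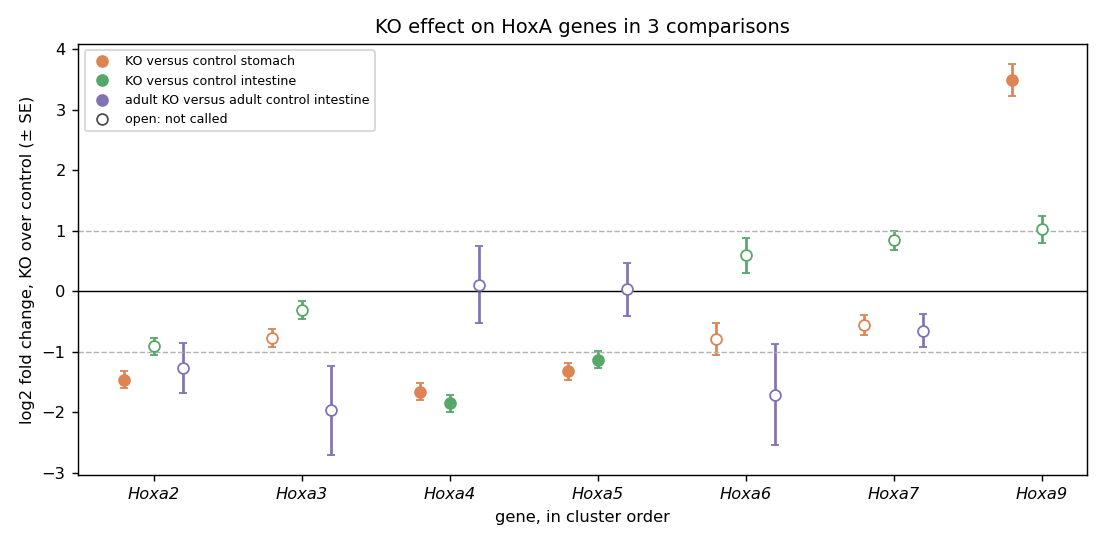
Log2 fold change with its SE for the 6 members and Hoxa9 in their order along the chromosome, in the 2 embryonic organs and the adult intestine on the TMM scale, with open symbols where no call was made. Hoxa4 has the lowest embryonic values, -1.66 and -1.85, and Hoxa7 lies at -0.56 in stomach and 0.84 in intestine. The negative embryonic values turn positive under spike-in scaling of all libraries, though not for Hoxa4 and Hoxa5 in intestine without KO intestine replicate 2. For Hoxa4 in intestine the value also stays negative without control intestine replicate 2.

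The interaction of organ and genotype tests whether the KO effect in intestine differs from that in stomach, at an adjusted p under 0.2. It called 1 of the 6 members, higher in intestine, where 0.462% of all genes were called, 0.191% higher and 0.271% lower. That member was Hoxa7, with a difference between the effects of 1.40 (SE 0.23, 95% interval from 0.87 to 1.94, adjusted p = 0.11 from edgeR). Under spike-in scaling the difference was 0.92 (adjusted p = 0.93 from edgeR), or 1.44 relative to the shifted median, and 0.09 under that scaling without KO intestine replicate 2. The Hoxa7 call ended without control intestine replicate 1 (adjusted p = 0.35 from edgeR), control intestine replicate 2 (0.43), control stomach replicate 2 (0.23) or KO stomach replicate 2 (0.4), while the difference stayed between 1.14 and 1.62.

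For Hoxa6 the difference was 1.37 (SE 0.39, adjusted p = 0.51 from edgeR). It had the same size as that of Hoxa7 with a larger error, at 2.02 ± 0.654 CPM (SD, n = 2) in KO intestine. With a replicate block within genotype Hoxa6 was called at 1.35 (adjusted p = 0.17 from edgeR), where 2.16% of all genes were called. The labels do not tie replicate numbers to animals. Hoxa4, called in both organs, had a difference of -0.20, and Hoxa5 had 0.18, which turned to -0.30 under spike-in scaling. Hoxa4 was at -0.06 without control intestine replicate 1, -0.33 without control intestine replicate 2, -0.09 without KO intestine replicate 1 and -0.31 without KO intestine replicate 2. Hoxa5 was at 0.05 without control stomach replicate 1, 0.31 without control stomach replicate 2, 0.35 without KO stomach replicate 1 and 0.03 without KO stomach replicate 2. Its turn under spike-in scaling ended without KO intestine replicate 1 (0.23) and without KO stomach replicate 2 (0.26). Under that scaling Hoxa6 was at 1.01, and at -0.29 without KO intestine replicate 2. Hoxa2, called in stomach alone, had a difference of 0.55, and Hoxa3 had 0.47 (0.30 without KO stomach replicate 2), and neither was called. The control libraries of both organs serve in this contrast and also in the comparison of the control organs. The values of Hoxa7 are therefore given side by side. They were -1.61 between the control organs, -0.56 for KO in stomach (-0.30 without control stomach replicate 2) and 0.84 for KO in intestine. The KO value in stomach turned positive under spike-in scaling.

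Between the KO organs none of the 6 members was called by edgeR or by DESeq2, and 1 had an unadjusted p under 0.05, where 4.4% of all genes were called, 1.46% higher and 2.94% lower in intestine. Hoxa4 was at 10.3 and 9.57 CPM in KO stomach and 9.2 and 10.7 in KO intestine, and these ranges overlap. Its log2 fold change was 0.00 (95% interval from -0.30 to 0.30). Hoxa7 was at 37.2 and 32.8 CPM in KO stomach and 30.1 and 30.5 in KO intestine, a log2 fold change of -0.21 (95% interval from -0.58 to 0.17), or -0.11 without KO stomach replicate 1. Hoxa5 was at 32.7 and 26.2 CPM in KO stomach and 19 and 19.3 in KO intestine, with -0.62 (SE 0.14, adjusted p = 0.043 from edgeR), below the size cutoff.

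The make-up of the members' transcripts does not depend on how libraries are scaled. In control intestine Hoxa4 held 38.9% and 34.8% of the summed TPM of the members, and in KO intestine 18.2% and 19.6%. Hoxa7 held 7.36% in each control intestinal library and 25.2% and 23.7% in KO intestine. In stomach Hoxa4 held 20.7% and 21.8% in control and 14.8% and 16.1% in KO, and Hoxa7 held 12.2% and 17.5% in control and 22.6% and 23.4% in KO. In both organs Hoxa4 lay above Hoxa7 in the control libraries and below it in the KO libraries.

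Counts of Hoxa7 for each count of Hoxa4 compare libraries with each other whatever the scaling. Hoxa7 has 3761 exon bases and Hoxa4 has 1594, so the size of the ratio does not give the order of the genes per length. The ratio was 0.446 and 0.499 in control intestine and 3.27 and 2.85 in KO intestine. In stomach it was 1.39 and 1.9 in control and 3.6 and 3.43 in KO. The KO libraries of both organs lay together, above all 4 control libraries. In the adult control libraries the ratio was 26.2 and 25.1, and in the libraries labelled adult KO it was lower, 16.6 at the most. The adult values are from unstranded counts. In the embryo, Hoxa7 for each Hoxa5 also lay above all controls in KO, at 1.14 or more against 0.902 or less. Hoxa5 for each Hoxa4 did not, at 2.06 and 1.8 in KO intestine and 2.58 and 2.1 in control stomach.

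**Figure D4:**
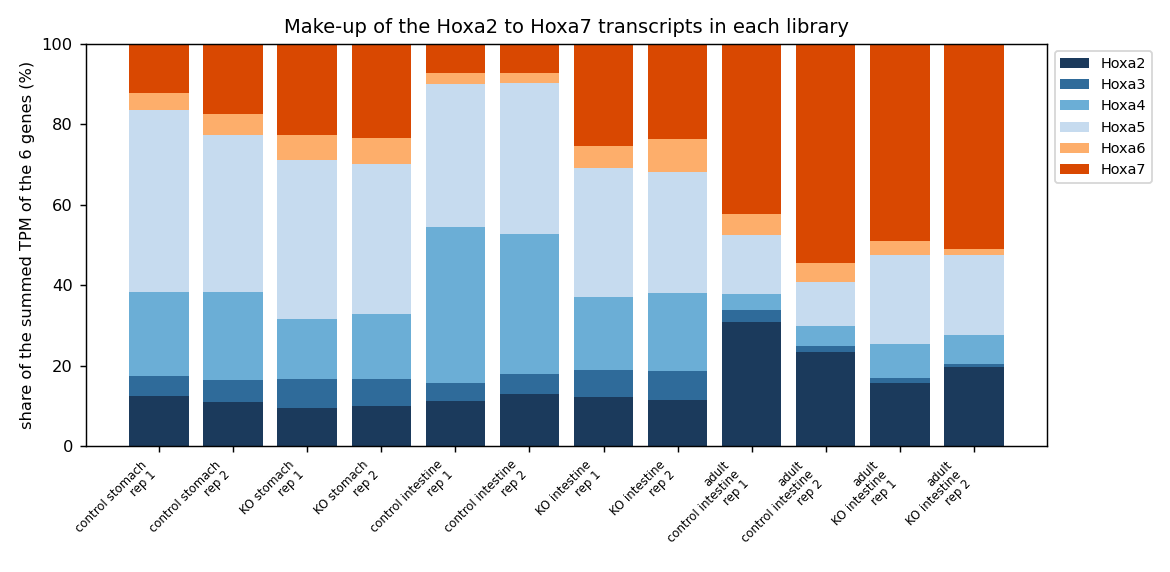
Share of each member in the summed TPM of the 6 members, in percent, for each of the 12 RNA libraries. Hoxa4 holds 38.9% and 34.8% in control intestine against 18.2% and 19.6% in KO intestine, and Hoxa7 holds 7.36% in both control intestinal libraries against 25.2% and 23.7%, shares that do not depend on scaling. In stomach, too, Hoxa4 lies above Hoxa7 in both controls and below it in both KO libraries.

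The genes on the posterior side of the members in the cluster frame these values. Hoxa9, the nearest of them, was at 1.07 and 1.25 CPM in control stomach, 14.4 and 11.8 in KO stomach, 6.4 and 6.29 in control intestine and 15.7 and 9.92 in KO intestine. Control stomach stood far below the other groups. The log2 fold change of Hoxa9 for KO in stomach was 3.49 (SE 0.27, adjusted p = 6.7e-04 from edgeR), and for the control organs it was 2.44 (SE 0.27, adjusted p = 0.0019 from edgeR). In intestine it was 1.02 (SE 0.23, adjusted p = 0.069 from edgeR), and the interaction was -2.47 (adjusted p = 0.069 from edgeR). That call ended without control intestine replicate 1 (adjusted p = 0.22 from edgeR) or 2 (0.24), and without control stomach replicate 1 (0.23) or 2 (0.23).

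Hoxa10 and Hoxa13, farther along the cluster, were at 0 counts in both control stomach libraries. Against a floor of 3 counts over the group, Hoxa10 was at least 953-fold and Hoxa13 at least 610-fold higher in KO stomach. In control intestine they were at least 636-fold and 169-fold higher than in control stomach. Evx1, beyond the end of the cluster, had 481 counts in KO stomach and 1 in control stomach, or 481 to 1, where counting error alone spans 85.9 to 19000. In intestine it had 76 counts in KO and 1 in control, or 68 to 1 after scaling, with a span of 11.8 to 2720. The call of Evx1 in intestine ended without control intestine replicate 1 (adjusted p = 0.11 from edgeR) and without control intestine replicate 2 (adjusted p = 0.06 from edgeR). Hoxa9, Hoxa10, Hoxa11, Hoxa13 and Evx1 together had 5 genes called higher and none lower in KO stomach, and 4 higher and none lower in control intestine against control stomach. In KO against control intestine edgeR called Evx1 alone among these 5 genes, and DESeq2 also called Hoxa9 and Hoxa13 higher.

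Of 6 noncoding genes that lie among the members, 5 were tested in the embryonic libraries, and Gm28308 had no counts in any library. Hoxaas2, antisense to the members and ending within Hoxa3, was at 10.8 and 7.85 CPM in control stomach, 3.06 and 2.33 in KO stomach, 3.09 and 3.26 in control intestine and 1.16 and 1.34 in KO intestine. Control stomach was highest and KO intestine lowest, without overlap between those 2 groups and the rest. The log2 fold change was -1.55 (adjusted p = 0.0076 from edgeR) between the control organs and -1.79 (adjusted p = 0.005 from edgeR) for KO in stomach, the latter turning to 0.53 under spike-in scaling and not called with the RUV factor (adjusted p = 0.1 from edgeR). The former call ended without control intestine replicate 1 (adjusted p = 0.079 from edgeR) and without replicate 2 of that group (0.056). For KO in intestine the log2 fold change was -1.34 (adjusted p = 0.035 from edgeR), turning to 0.53 under spike-in scaling, and to -0.41 in that scaling without KO intestine replicate 2. That call ended without control intestine replicate 1 (adjusted p = 0.17 from edgeR) or 2 (0.15), and without KO intestine replicate 1 (0.12) or 2 (0.1). It also ended with the RUV factor (adjusted p = 0.15 from edgeR) and in a fit of the 4 intestinal libraries alone (0.074).

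Between the KO organs Hoxaas2 differed by -1.11 (adjusted p = 0.043 from edgeR), a call that ended without KO intestine replicate 1 (adjusted p = 0.16 from edgeR) or 2 (0.095), and without KO stomach replicate 1 (0.19) or 2 (0.082), and in a fit of the 4 KO libraries alone (0.13). Gm15050, a noncoding gene between Hoxa2 and Hoxa4, was at 6.23 and 4.97 CPM in control stomach and 2.98 and 1.97 in KO stomach. Its log2 fold change was -1.17 (adjusted p = 0.038 from edgeR), turning to 1.10 under spike-in scaling, and its call ended without control stomach replicate 1 (adjusted p = 0.19 from edgeR) or 2 (0.1), or without KO stomach replicate 2 (0.19), with the RUV factor (0.51) or in a fit of the 4 stomach libraries alone (0.053). With the exception of Hoxaas2 and Gm15050, no noncoding gene of this list was called in an embryonic comparison.

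The paralogs of the members in the other Hox clusters were Hoxb2 to Hoxb7, Hoxc4, Hoxc5, Hoxc6, Hoxd3 and Hoxd4, 11 genes. In KO stomach 1 was called higher and 2 lower, and in KO intestine 1 was called lower. Hoxc6, the paralog of Hoxa6, was at 2.84 ± 0.414 CPM (SD, n = 2) in control stomach and 9.81 ± 0.153 in KO stomach, a log2 fold change of 1.78 (SE 0.15, adjusted p = 9.3e-04 from edgeR). In intestine it was at 31.6 ± 3.12 CPM (SD, n = 2) in control and 24.8 ± 1.23 in KO. The interaction for Hoxc6 was -2.14 (SE 0.20, adjusted p = 0.016 from edgeR), of opposite sign to that of Hoxa7. Hoxb7, the paralog of Hoxa7, and Hoxc5, a paralog of Hoxa5, had log2 fold changes in KO stomach of -1.18 (adjusted p = 0.008 from edgeR) and -1.32 (adjusted p = 0.0029 from edgeR), which turned to 1.11 and 1.01 under spike-in scaling. The Hoxb7 call ended without control stomach replicate 1 (adjusted p = 0.054 from edgeR) or 2 (0.051), and with the RUV factor (0.11), and without KO stomach replicate 2 its log2 fold change was -0.95. Hoxb5, also a paralog of Hoxa5, had -1.19 in KO intestine (SE 0.12, adjusted p = 0.0047 from edgeR), which turned to 0.64 under spike-in scaling and was -0.11 in that scaling without KO intestine replicate 2.

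Between the control organs 2 paralogs were called higher in intestine, Hoxc6 at 3.47 (SE 0.15, adjusted p = 5.9e-05 from edgeR) and Hoxd3 at 4.55 (SE 1.04, adjusted p = 0.043 from edgeR). The call of Hoxd3 ended without any of the 4 control libraries, with an adjusted p from edgeR of 0.2 without control intestine replicate 1, 0.11 without replicate 2, 0.21 without control stomach replicate 1 and 0.14 without replicate 2. Between the KO organs Hoxc6 was 1.34 higher in intestine (adjusted p = 0.0025 from edgeR) and Hoxd3 2.90 higher (adjusted p = 0.04 from edgeR). That call of Hoxd3 ended without KO intestine replicate 1 (adjusted p = 0.15 from edgeR), KO stomach replicate 1 (0.067) or KO stomach replicate 2 (0.2), and in a fit of the 4 KO libraries alone (0.11). The median of the paralogs was -0.58 in KO stomach and -0.38 in KO intestine on the TMM scale, medians that are smaller in size than the shifts that spike-in scaling brings.

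Proteins that act with or on Hox genes were followed as fixed lists. Of 9 cofactors of the Pbx, Meis and Pknox families, which bind DNA together with Hox proteins, edgeR and DESeq2 called 0 in every embryonic comparison. At an unadjusted p under 0.05 there were 3 of them in KO stomach and 1 in KO intestine, 2 between the control organs, 1 between the KO organs and 2 in the interaction. Of 6 activating chromatin regulators, such as Kmt2a and Kdm6b, both tools also called 0 in every embryonic comparison, and 1 had an unadjusted p under 0.05, in KO stomach. Of 8 tested axial regulators, which set Hox domains through retinoic acid, Cdx factors and Gdf11, 3 were lower in control intestine than in control stomach, Rarb at -1.44 (adjusted p = 5.9e-04 from edgeR), Rarg at -1.01 (adjusted p = 0.0027 from edgeR) and Cyp26a1 at -4.35 (adjusted p = 2.6e-04 from edgeR). Rarg fell under the size cutoff without control intestine replicate 2 (-0.99) and without control stomach replicate 2 (-0.90). In KO stomach edgeR called 1 of the 8, Cyp26a1, which breaks down retinoic acid, at -1.87 (SE 0.22, adjusted p = 0.0035 from edgeR). It turned to 0.40 under spike-in scaling (-0.01 without KO stomach replicate 2) and was not called with the RUV factor (adjusted p = 0.093 from edgeR). There DESeq2 also called Cdx1 higher, at 3.60 (adjusted p = 0.038 from DESeq2, against 0.065 from edgeR). Cdx1 had 49 counts in KO stomach and 4 in control stomach. In KO intestine edgeR and DESeq2 called none of the 8, and 2 had an unadjusted p under 0.05. Between the KO organs Cyp26a1 was lower in intestine at -2.33 (SE 0.25, adjusted p = 0.0029 from edgeR). Its interaction was 2.02 (SE 0.36, adjusted p = 0.14 from edgeR), a call that ended without control intestine replicate 1 (adjusted p = 0.46 from edgeR) or 2 (0.39), KO intestine replicate 1 (0.34), control stomach replicate 1 (0.34) or 2 (0.44), or KO stomach replicate 2 (0.33).

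Of 18 Polycomb genes, Bmi1, a subunit of PRC1, was called higher in KO in both organs, and Eed lower, with the direction of Eed in stomach turning under spike-in scaling. Bmi1 was at 121 ± 2.12 CPM (SD, n = 2) in control stomach and 278 ± 36.8 in KO stomach, and at 99.4 ± 2.28 in control intestine and 252 ± 22.7 in KO intestine. Its log2 fold change was 1.20 (SE 0.12, adjusted p = 0.0016 from edgeR) in stomach and 1.34 (SE 0.12, adjusted p = 0.0026 from edgeR) in intestine. Between the control organs edgeR and DESeq2 called none of the 18, and 3 had an unadjusted p under 0.05. Between the KO organs the same tools called none, and 1 had an unadjusted p under 0.05.

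Marker genes give the make-up of the sorted cells behind these values. Mesenchymal markers, 10 genes headed by Col3a1, summed to between 13500 and 24800 CPM over the 8 embryonic libraries, with none at 0. None was called for KO by edgeR or DESeq2, with 3 at an unadjusted p under 0.05 in stomach and 4 in intestine. Between the control organs Twist1 was called lower in intestine (-1.04, adjusted p = 0.023 from edgeR). Between the KO organs Foxf2 was called higher in intestine (1.18, adjusted p = 0.0024 from edgeR). Endothelial markers, 6 genes headed by Kdr, summed to 15.2 and 14.3 CPM in control stomach, 24.3 and 44.7 in KO stomach, 15.3 and 19.4 in control intestine and 45.8 and 45.6 in KO intestine, and Cldn5 was at 0 in control stomach replicate 2. Of the 6, edgeR called 4 higher in KO stomach, 2 in KO intestine and 4 in control intestine against control stomach. Their sums were higher in every KO library than in the controls of the same organ, and their part in the members' values was not tested.

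The organ markers Barx1, Nkx2-3 and Hand1 were headed by Barx1 in every embryonic stomach library and by Nkx2-3 in every intestinal library. Their sum was between 346 and 630 CPM in stomach and between 247 and 271 CPM in embryonic intestine. Of the 3, edgeR called Nkx2-3 and Hand1 higher in KO stomach, and Barx1 higher in KO intestine. Smooth muscle and pericyte markers, 8 genes headed by Acta2 in the embryo, summed to 2850 and 3040 CPM in control stomach, 1960 and 2240 in KO stomach, 3960 and 3040 in control intestine and 3200 and 5410 in KO intestine, with 0 of 8 called for KO in either organ by edgeR or DESeq2 and 3 at an unadjusted p under 0.05 in each. Between the control organs Des (1.18, adjusted p = 0.011 from edgeR) and Rgs5 (1.09, adjusted p = 0.043 from edgeR) were called higher in intestine. Des, Tagln and Cnn1 were called higher in KO intestine than in KO stomach. The part of these markers in the members' values was not tested. Of 6 adult fibroblast and telocyte markers, headed by Pdgfra in the embryo, 0 were called for KO by edgeR or DESeq2 and 2 had an unadjusted p under 0.05 in each organ. Their sum ran from 995 to 1620 CPM, with no gene at 0.

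Epithelial markers, 8 genes headed by Krt19, summed to between 66.4 and 123 CPM in the embryo, with Cldn3 at 0 in both control intestinal libraries. Enteric neural crest and neuronal markers, 8 genes headed by Ednrb, summed to 55.5 and 67.1 CPM in control stomach, 66.3 and 76 in KO stomach, 209 and 195 in control intestine and 98.2 and 170 in KO intestine. Mesothelial markers, 4 genes headed by Upk3b, summed to 484 and 505 CPM in control stomach, 305 and 403 in KO stomach, 292 and 446 in control intestine and 311 and 310 in KO intestine. For KO edgeR called 0 genes of these 3 lists in either organ. DESeq2 called 2 epithelial genes in stomach and 3 in intestine, and none of the others. At an unadjusted p under 0.05 there were 4 epithelial, 1 neural crest and 3 mesothelial genes in stomach, and 5, 2 and 1 in intestine. Ednrb was called higher in control intestine than in control stomach, and Epcam, Cldn4 and Wt1 were called lower.

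Immune markers, 5 genes found of a list of 6, were headed by Cd68 or Csf1r and did not pass a sum of 2.82 CPM in any embryonic library, with Ptprc at 0 in 6 of the 8. Erythroid markers, 6 genes, headed by Hbb-y or Hbb-bs, summed to between 0.493 and 22.3 CPM. Spleen and pancreas markers, 4 genes headed by Nkx2-5, summed to 33.7 and 6.75 CPM in control stomach, 14.7 and 19.5 in KO stomach, 0.477 and 1.21 in control intestine and 3.14 and 4.96 in KO intestine, with Ptf1a at 0 in all 8 libraries. For KO edgeR called 0 genes of these 3 lists in either organ, with 2 immune and 3 erythroid genes at an unadjusted p under 0.05 in stomach, and 1 erythroid and 2 spleen and pancreas genes in intestine. DESeq2 called 1 immune and 1 erythroid gene in stomach and 1 spleen and pancreas gene in intestine. Nkx2-5 was called lower in control intestine than in control stomach. What share of the members' signal comes from such cells was not tested.

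The adult comparison asks what the same allele does in the mature intestine. Neither edgeR nor DESeq2 called any of the 6 members, 3 had an unadjusted p under 0.05, and 19.6% of the 15039 genes tested were called, 12.3% higher and 7.23% lower in the libraries labelled adult KO. Hoxa7 was the highest member at 24.8 and 36.9 CPM in the adult control libraries and 17.5 and 21.8 in those labelled adult KO. Its groups did not overlap, and its log2 fold change was -0.65 (95% interval from -1.30 to 0.00, adjusted p = 0.13 from edgeR). This value was -0.92 without adult control intestine replicate 1 and -0.33 without adult control intestine replicate 2. Hoxa2 was at 8.11 and 7.13 CPM in the adult control libraries and 2.5 and 3.78 in those labelled adult KO, with -1.27 (SE 0.42, adjusted p = 0.073 from edgeR). With no filter on low counts Hoxa2 was called at -1.30 (adjusted p = 0.038 from edgeR), where 15% of all genes were called. Under spike-in scaling, which called 16.5% of all genes, Hoxa2 was called at -1.70 (adjusted p = 0.046 from edgeR). That last call ended without adult control intestine replicate 2 or either library labelled adult KO.

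Hoxa3 was at 2.85 and 1.4 CPM in the adult control libraries and 0.701 and 0.386 in those labelled adult KO, from 39, 20, 7 and 5 counts. Its log2 fold change was -1.97 (95% interval from -3.71 to -0.23, adjusted p = 0.10 from edgeR). Hoxa6, from 10 and 11 counts against 3 and 2, had -1.71 (95% interval from -3.67 to 0.24). The controls were higher for both genes, with few counts behind either interval. Hoxa4 was at 0.95 and 1.47 CPM in the adult control libraries and 1.3 and 1.31 in those labelled adult KO, and Hoxa5 at 4.31 and 3.71 against 3.91 and 4.24. The groups overlapped for both, with log2 fold changes of 0.11 (95% interval from -1.38 to 1.60) and 0.03 (95% interval from -1.01 to 1.06), both below 0 under spike-in scaling. On the TMM scale Hoxa4 was at -0.17 without adult control intestine replicate 1 and 0.46 without adult control intestine replicate 2, and Hoxa5 at 0.13 and -0.07. With spike-ins Hoxa4 was at 0.40 without adult control intestine replicate 2.

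Per length, Hoxa7 led the adult control libraries at 21 ± 5.42 TPM (SD, n = 2), ahead of Hoxa2 at 11.7 ± 1.29 and Hoxa5 at 5.49 ± 0.694. Hoxa6 at 2.2 ± 0.0365 TPM and Hoxa4 at 1.94 ± 0.553 lay within their spread of each other, and Hoxa3 was lowest at 0.912 ± 0.456. Between libraries, the summed CPM of the members was 41.8 and 51.4 in the adult control libraries and 26.2 and 31.6 in those labelled adult KO. Hoxa7 held 42.3% and 54.3% of the summed TPM in the adult control libraries and 49% and 50.9% in the others. Of the flanking genes in the adult libraries, Hoxa11 had 0 counts in all 4, and Hoxa10 and Hoxa13 had 1 count each over the 4.

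Cell markers differed widely between the adult groups. Immune markers summed to 151 and 177 CPM in the adult control libraries, headed by Ptprc, and to 3220 and 3030 in those labelled adult KO, headed by Csf1r, with 4 of 5 called higher and Cd79a called lower. Mesenchymal markers, headed by Col3a1, summed to 11400 and 11900 CPM in the adult control libraries and 4980 and 3480 in those labelled adult KO, with 5 of 8 tested genes called lower and Nkx3-2 at 0 in 1 library of each group. Smooth muscle and pericyte markers, headed by Rgs5, summed to 15000 and 13500 CPM against 7370 and 6630, with Rgs5 called lower and Myh11 and Cnn1 called higher. The controls thus held the higher mesenchymal and the lower immune sums, and the part of these differences in the members' values was not tested.

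The other lists also differed in the adult libraries. Adult fibroblast and telocyte markers summed to 2380 and 2540 CPM in the adult control libraries, headed by Pdgfra and Cd34, and to 4210 and 4460 in those labelled adult KO, headed by Cd81, with 1 of 6 called higher and 3 lower. Endothelial markers, headed by Pecam1, summed to 97.1 and 96.6 CPM against 148 and 219, with 2 of 6 called higher. Neural crest markers, headed by Ednrb, summed to 470 and 291 CPM against 131 and 148, with Elavl4 called higher and Ednrb lower. Mesothelial markers summed to 11.5 and 14.7 CPM against 2.3 and 9.49, and epithelial markers to 31.2 and 64.5 against 67.6 and 80.8, with no gene of either list called by edgeR, 2 and 1 at an unadjusted p under 0.05, and 1 of each called by DESeq2. Organ markers summed to 295 and 291 CPM against 114 and 116, headed by Nkx2-3, which was called lower. Erythroid sums did not pass 3.63 CPM, and spleen and pancreas sums did not pass 0.694 CPM.

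Among the fixed gene lists in the adult comparison, 2 of 9 tested paralogs were called lower, Hoxc4 at -1.60 (SE 0.20, adjusted p = 0.0022 from edgeR) and Hoxc5 at -1.58 (SE 0.29, adjusted p = 0.0091 from edgeR). Of 8 tested cofactors, Pknox2 was called lower at -1.87 (adjusted p = 0.0018 from edgeR). Of 7 axial regulators, Cdx1 was higher at 4.30 (adjusted p = 0.0045 from edgeR) and Aldh1a2 lower at -1.29 (adjusted p = 0.0062 from edgeR). Among 6 activating regulators Kdm6b was higher at 2.23 (adjusted p = 0.0064 from edgeR) and Men1 lower at -1.27 (adjusted p = 0.01 from edgeR). Of 17 Polycomb genes, Pcgf2 was lower at -1.26 (adjusted p = 0.022 from edgeR), a call that ended without adult control intestine replicate 1 (adjusted p = 0.097 from edgeR) and without adult KO intestine replicate 2 (adjusted p = 0.052 from edgeR).

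The difference between the adult and the embryonic effect in intestine was tested over all 12 libraries, with kits and counting that differ between the ages. It called 5 of the 6 members, 2 higher and 3 lower in the adult effect on the TMM scale, where 13.7% of the 19388 genes tested were called, 6.91% higher and 6.82% lower. Hoxa4, at -1.85 in the embryo and 0.11 in the adult libraries, had a difference of 1.95 (SE 0.36, adjusted p = 0.0053 from edgeR), which turned to -0.39 under spike-in scaling. Hoxa5 had 1.15 (SE 0.26, adjusted p = 0.014 from edgeR), which turned to -1.10. Relative to the shifted median these values were 1.88 and 1.17. The turn of Hoxa4 ended without embryonic KO intestine replicate 2 (0.58 with spike-ins) and without adult control intestine replicate 2 (0.37). Hoxa7, at 0.84 in the embryo and -0.65 in the adult libraries, had a difference of -1.50 (SE 0.32, adjusted p = 0.01 from edgeR), or -1.58 relative to the shifted median.

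Hoxa3 had a difference of -1.70 (SE 0.52, adjusted p = 0.049 from edgeR) and Hoxa6 of -2.35 (SE 0.67, adjusted p = 0.038 from edgeR), both from few adult counts. Hoxa2 had -0.36 (-0.11 without adult KO intestine replicate 1, -0.71 without adult KO intestine replicate 2) and was not called. Hoxa4 and Hoxa7 were called in each of the 8 fits that left out an intestinal library. The call of Hoxa5 ended without embryonic control intestine replicate 1 (adjusted p = 0.053 from edgeR). That of Hoxa3 ended without embryonic control intestine replicate 1 (adjusted p = 0.13 from edgeR) or 2 (0.1), embryonic KO intestine replicate 1 (0.069) or 2 (0.11), adult control intestine replicate 1 (0.15, at a difference of -1.11) or adult KO intestine replicate 2 (0.2), and with RLE in place of TMM factors (0.062). That of Hoxa6 ended without embryonic control intestine replicate 1 (adjusted p = 0.089 from edgeR) or 2 (0.11), embryonic KO intestine replicate 2 (0.11), adult control intestine replicate 1 (0.063) or 2 (0.07) or adult KO intestine replicate 2 (0.13), and with no filter on low counts (0.054). A replicate block also ended the Hoxa3 call (adjusted p = 0.056 from edgeR). Spike-in scaling called 35.8% of all genes tested, 54 higher and 6894 lower. Under it Hoxa2 was at -2.65 and called lower (adjusted p = 0.042 from edgeR). In that scaling Hoxa3 was at -3.84, Hoxa6 at -4.64 and Hoxa7 at -3.85. Calls of members in that scaling did not hold in every fit that left out a library. The adult part of the contrast rests on libraries in which a reduction of Eed was not called. In the same adult libraries the immune sum was 151 and 177 CPM in controls against 3220 and 3030 in those labelled adult KO, and the mesenchymal sum 11400 and 11900 against 4980 and 3480. The part of these shifts in the differences between ages was not tested.

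Over the 8 embryonic libraries, correlation of log2 CPM describes how alike the members' patterns are, with libraries that share their genotype and organ. Hoxa2 and Hoxa5 had the highest Pearson correlation among the members (r = 0.95), followed by Hoxa3 with Hoxa5 and Hoxa6 with Hoxa7 (r = 0.92 for both pairs). Hoxa4 and Hoxa7 had the lowest, at r = -0.19. Among 13979 genes, those most like Hoxa2 were Nox4 (r = 0.981), Pptc7 (r = 0.978) and Slc39a6 (r = 0.977), and those most like Hoxa3 were Slc5a6 (r = 0.970), Gpt2 (r = 0.968) and Hoxb7 (r = 0.966). Ublcp1 (r = 0.994), Gm13394 (r = 0.994) and Gm3608 (r = 0.993) were most like Hoxa4. Hoxa5 was closest to Rgmb (r = 0.977), Hoxaas2 (r = 0.977) and Stx8 (r = 0.971). Hoxa6 was closest to Avpr1a (r = 0.969), Tnmd (r = 0.962) and Csad (r = 0.959), and Hoxa7 to Rxrg (r = 0.982), Hoxb8 (r = 0.977) and Zadh2 (r = 0.964). These values are a description over 4 groups of 2 libraries, and a gene that separates the same groups scores high.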

How the data were processed

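RNA was sequenced from sorted GFP+ mesenchyme of 12 mouse samples, and accessible chromatin in the 4 embryonic conditions. The counts were made by the authors, who trimmed reads with Trimmomatic 0.32, aligned them with STAR 2.5.1b to GRCm38 plus spike-in sequences and counted read pairs per gene symbol of GENCODE with featureCounts, per the submitters' processing notes. The fold enrichment and the -log10 q of each region were deposited by the authors as MACS2 2.1.2 gave them, from BWA 0.7.8 alignments of pooled replicates.

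Spike-in transcripts were kept out of library sizes. Counts were tested in edgeR 4.0.16 with limma 3.58.1 in R 4.3.3, with TMM, filterByExpr, the quasi-likelihood F-test and Benjamini-Hochberg adjustment over all genes tested. The 8 embryonic libraries shared a model, the 4 adult libraries had their own, and all 12 were fitted together for the difference between ages. The biological coefficient of variation was 15.8%, 29.1% and 20.6% in these fits. The interaction was called at an adjusted p under 0.2 from edgeR. Alternatives were DESeq2 1.42.0, other scaling and filters, an RUV factor, replicate blocks and left-out libraries. The main edgeR fit and the DESeq2 fit were tested on simulated data, for KO stomach, the adult comparison and the difference between ages. Regions and figures were handled in Python 3.11.15 with pandas 2.3.3, numpy 2.4.6 and matplotlib 3.10.9, and a promoter overlap needed at least 1 bp.

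Named genes were all members, Hoxa9, Hoxa10, Hoxa11, Hoxa13 and Evx1, noncoding genes among the members, Eed, and, where called, paralogs in the other clusters and genes of the lists of cofactors, axial regulators, activating chromatin regulators and Polycomb genes. The 3 genes most like each member were also named, and marker lists covered mesenchyme, organ, adult fibroblast and telocyte, smooth muscle and pericyte, epithelium, endothelium, enteric neural crest and neurons, mesothelium, immune, erythroid, and spleen and pancreas cells. The members and lists were chosen with earlier results of these data known.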

Additional observations from a re-analysis of the deposited data

Results flagged for a closer look

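Each result given here differed between organs or between ages in a test of the difference itself. On the TMM scale edgeR called 75 genes for a difference of the knockout effect between intestine and stomach, 31 higher and 44 lower in intestine. Of these, 7 belong to the HoxA genes, paralogs and regulators followed here, and the organ markers Barx1 (4.31, adjusted p = 0.031 from edgeR) and Nkx2-3 (-4.57, adjusted p = 0.12 from edgeR) were also called. Hoxa7 had a log2 difference of 1.40 (adjusted p = 0.11 from edgeR), and its call ended without control intestine replicate 1 (adjusted p = 0.35 from edgeR) or 2 (0.43), control stomach replicate 2 (0.23) or KO stomach replicate 2 (0.4). Cyp26a1 had 2.02 (adjusted p = 0.14 from edgeR), and its call ended without control intestine replicate 1 (adjusted p = 0.46 from edgeR) or 2 (0.39), KO intestine replicate 1 (0.34), control stomach replicate 1 (0.34) or 2 (0.44), or KO stomach replicate 2 (0.33). Hoxa9 had -2.47 (adjusted p = 0.069 from edgeR), a call that ended without control intestine replicate 1 (adjusted p = 0.22 from edgeR) or 2 (0.24), or control stomach replicate 1 (0.23) or 2 (0.23). Hoxc6 had -2.14 (adjusted p = 0.016 from edgeR). Hoxa10, Hoxa11 and Hoxa13 had adjusted p-values of 0.0099, 0.0081 and 0.0099 from edgeR, and no size is given because control stomach was at 0. Under spike-in scaling the values of Hoxa7, Hoxa9, Hoxc6 and Cyp26a1 kept their signs and were not called (adjusted p = 0.93 from edgeR for each).

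Between ages, the intestinal effect in the libraries labelled adult KO was set against the embryonic effect. Immune markers summed to 151 and 177 CPM in the adult controls and 3220 and 3030 in the libraries labelled adult KO, and mesenchymal markers to 11400 and 11900 against 4980 and 3480, and their part was not tested. Hoxa4 (1.95, adjusted p = 0.0053 from edgeR) and Hoxa5 (1.15, adjusted p = 0.014 from edgeR) had positive differences that turn to -0.39 and -1.10 under spike-in scaling, where Hoxa4 was at 0.58 without embryonic KO intestine replicate 2 and 0.37 without adult control intestine replicate 2. Hoxa3 (-1.70, adjusted p = 0.049 from edgeR), Hoxa6 (-2.35, adjusted p = 0.038 from edgeR) and Hoxa7 (-1.50, adjusted p = 0.01 from edgeR) had negative differences on both scales. Under spike-in scaling these were -3.84, -4.64 and -3.85. A replicate block ended the Hoxa3 call on the TMM scale (adjusted p = 0.056 from edgeR). The call of Hoxa5 ended without embryonic control intestine replicate 1 (adjusted p = 0.053 from edgeR). The call of Hoxa3 ended without embryonic control intestine replicate 1 (adjusted p = 0.13 from edgeR) or 2 (0.1), embryonic KO intestine replicate 1 (0.069) or 2 (0.11), adult control intestine replicate 1 (0.15, at a difference of -1.11) or adult KO intestine replicate 2 (0.2), and with RLE factors (0.062). For Hoxa6 it ended without embryonic control intestine replicate 1 (adjusted p = 0.089 from edgeR) or 2 (0.11), embryonic KO intestine replicate 2 (0.11), adult control intestine replicate 1 (0.063) or 2 (0.07), or adult KO intestine replicate 2 (0.13), and with no filter on low counts (0.054).

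Of the other genes on the fixed lists of paralogs and regulators, and with Eed, these differed between ages. Eed had 1.69 (adjusted p = 0.0038 from edgeR), Hoxb5 1.18 (adjusted p = 0.011 from edgeR), Cyp26b1 2.07 (adjusted p = 0.038 from edgeR), Kdm6b 2.01 (adjusted p = 0.036 from edgeR) and Ring1 1.48 (adjusted p = 0.046 from edgeR), and these turn to -0.52, -1.03, -0.28, -0.43 and -0.87 under spike-in scaling. Without embryonic KO intestine replicate 2 the spike-in values of Eed (0.06), Cyp26b1 (0.57) and Kdm6b (0.97) were positive, and without adult control intestine replicate 2 those of Cyp26b1 (0.23) and Ring1 (0.46) were. For Cyp26b1 this was also so without embryonic control intestine replicate 2 (0.01) and without adult KO intestine replicate 1 (0.12). Hoxb3 had -1.59 (adjusted p = 0.022 from edgeR), Hoxc4 -1.34 (adjusted p = 0.0041 from edgeR), Pknox2 -2.07 (adjusted p = 0.0015 from edgeR), Rarg -1.40 (adjusted p = 0.013 from edgeR), Men1 -1.23 (adjusted p = 0.0043 from edgeR), Cbx2 -2.62 (adjusted p = 0.0079 from edgeR) and Pcgf2 -1.21 (adjusted p = 0.0043 from edgeR), which kept their signs. Eed, Hoxc4, Pknox2, Men1 and Pcgf2 were called in each of the 8 fits that left out an intestinal library.

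Calls that ended without a library, by adjusted p from edgeR, are given by gene. For Hoxb3 these were embryonic control intestine replicate 1 (0.066) and 2 (0.062), embryonic KO intestine replicate 2 (0.053), adult control intestine replicate 2 (0.062) and adult KO intestine replicate 1 (0.066). For Hoxb5 and Rarg it was embryonic control intestine replicate 2 (0.052 and 0.05), and for Cbx2 adult control intestine replicate 1 (0.067). For Kdm6b they were embryonic control intestine replicate 2 (0.14), embryonic KO intestine replicate 1 (0.11), adult control intestine replicate 2 (0.11) and adult KO intestine replicate 2 (0.12). For Cyp26b1 they were embryonic control intestine replicate 1 (0.12) and 2 (0.062), embryonic KO intestine replicate 1 (0.082) and 2 (0.084), adult control intestine replicate 1 (0.12) and 2 (0.082), and adult KO intestine replicate 2 (0.17, at 1.20). For Ring1 they were embryonic control intestine replicate 1 (0.094) and 2 (0.15), embryonic KO intestine replicate 1 (0.077) and 2 (0.12), adult control intestine replicate 1 (0.08, at 0.94), and adult KO intestine replicate 1 (0.051) and 2 (0.11), while without adult control intestine replicate 2 Ring1 was at 2.36.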

How the results depend on the processing

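Of 282 log2 fold changes of members under other settings, 253 kept their direction and their side of the threshold, 16 changed sign, 6 passed the threshold anew and 7 no longer passed it. Of 71 counts of members, 61 stayed within 1.5 times the reported count, and for those that did not the cause was not tested. A start at any annotated transcript in place of the counted model was tried for the promoter counts after seeing the data.

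Spike-in scaling turned 15 of the 16 signs. In KO stomach Hoxa2 was at 0.90, Hoxa3 at 1.54, Hoxa4 at 0.71, Hoxa5 at 1.02, Hoxa6 at 1.54 and Hoxa7 at 1.78, with 2 called, Hoxa3 and Hoxa7, both higher. In KO intestine Hoxa2 was at 0.95, Hoxa3 at 1.58, Hoxa4 at 0.03 and Hoxa5 at 0.72, with 3 called higher, Hoxa3, Hoxa6 and Hoxa7. It called 0 members between the control organs, where 2 had been called, and 0 in the interaction, where Hoxa5 turned to -0.30. In the adult comparison it called 1 lower, Hoxa2, with Hoxa4 at -0.36 and Hoxa5 at -0.38. Between ages it called 4 lower, Hoxa2, Hoxa3, Hoxa6 and Hoxa7, with Hoxa4 at -0.39 and Hoxa5 at -1.10. The cause was not tested.

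Spike-in scaling with a library left out in turn was tried after seeing the data. The members called then went from 0 to 3 in KO stomach, from 0 to 3 in KO intestine, from 0 to 0 in the interaction, from 0 to 2 in the adult comparison and from 0 to 4 between ages. In KO stomach all 6 members stayed above 0. In KO intestine Hoxa4 went from -0.94 to 0.61 and Hoxa5 from -0.10 to 1.24, with the lowest value of each without KO intestine replicate 2. In the interaction Hoxa2 went from -0.78 to 0.71, Hoxa3 from -0.89 to 0.62, Hoxa4 from -1.65 to 0.02, Hoxa5 from -1.12 to 0.26 and Hoxa6 from -0.29 to 1.71. Hoxa4 went from -0.89 to 0.40 in the adult comparison and from -0.96 to 0.58 between ages. Of all genes, between 2.45% and 95.2% were called in KO stomach, 0.417% and 92.5% in KO intestine and 1.82% and 56.5% between ages.

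Of all genes tested, spike-in scaling called 95.2% in KO stomach, with 15419 higher and 19 lower in place of 785 and 131. In KO intestine it called 84.4%, with 13664 higher and 24 lower in place of 386 and 37. It called 0.956% between the control organs, 0.709% between the KO organs and 0.123% in the interaction, with 0 higher and 20 lower in place of 31 and 44. For the adult comparison the split moved from 1856 higher and 1088 lower to 1154 and 1321, and between ages from 1340 and 1322 to 54 and 6894. In KO intestine, 4.22% of genes were called by DESeq2, 1.51% with 1 RUV factor and 1.58% in a fit of the 4 libraries alone, against 2.61%. With no filter on low counts, 734 genes were higher and 66 lower there. The RUV factor gave 184 higher and 61 lower in KO intestine, and 274 higher and 147 lower in KO stomach, or 2.6% against 5.65%. The 4 libraries alone gave 2.51% between the KO organs against 4.4%. For the interaction DESeq2 gave 1.28%, the RUV factor 1.01% and no filter on low counts 0.934%, against 0.462%.

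With 1 RUV factor, 1 member was called in KO intestine, Hoxa4. With no filter on low counts, Hoxa2 was the 1 member called in the adult comparison, and Hoxa5 turned to -0.01. Between ages, Hoxa3 was not called with RLE factors (adjusted p = 0.062 from edgeR), nor Hoxa6 with no filter (adjusted p = 0.054 from edgeR). A -log10 q of 5 or more left 3 members with a promoter region in the KO stomach list. The RUV factor was not run for the adult comparison or between ages. Among other called genes, the RUV factor ended the calls in KO stomach of Hoxaas2 (adjusted p = 0.1 from edgeR), Gm15050 (0.51), Hoxb7 (0.11) and Cyp26a1 (0.093), and in KO intestine of Hoxaas2 (0.15). The cause was not tested.

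Replicate numbers were treated as shared numbers only, since neither the labels nor the methods, which separate the organs of each animal, tie a number to an animal or a batch. Deviations of samples with the same number correlated at 0.37 between the control organs, 0.75 between the KO organs, 0.20 between the genotypes in intestine and 0.14 in stomach, 0.28 between control intestine and KO stomach and 0.25 between KO intestine and control stomach. A replicate block left 4 members called between ages, without Hoxa3 (adjusted p = 0.056 from edgeR), and changed no other call of a member. A block within genotype gave 2 members in the interaction, Hoxa6 (adjusted p = 0.17 from edgeR) and Hoxa7. Over all genes the interaction called 1.15% with the block and 2.16% with the block within genotype.

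Leaving out a library in turn, with the lone library of a group assumed to vary like the other groups, gave 216 log2 fold changes of members, of which 188 were as reported, 23 no longer passed and 5 changed sign. The members called went from 1 to 1 between the control organs, from 1 to 2 in KO intestine, from 0 to 1 in the interaction and from 2 to 5 between ages. Between the KO organs Hoxa2 went from -0.09 to 0.06 and Hoxa6 from -0.51 to 0.16. In the adult comparison Hoxa4 went from -0.17 to 0.46 and Hoxa5 from -0.07 to 0.13. Of all genes, between 2.21% and 2.96% were called between the control organs, 2.05% and 3.88% in KO stomach, 0.441% and 2.17% in KO intestine, 1.82% and 3.14% between the KO organs, 0.161% and 0.576% in the interaction, 14.4% and 19.5% in the adult comparison and 7.93% and 15.8% between ages. These fits have fewer samples, and few counts stand behind the adult values of Hoxa3, Hoxa4 and Hoxa6.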
